A study of Mus musculus with 7 samples.

Results

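Gene expression in whole skeletal muscle of 24-month-old MISR mice was compared with that in 24-month-old wild-type (WT) mice, using 2 gene arrays of each genotype, 4 of the 7 arrays in the study. The methods give C57BL/6 as the strain of the WT mice and name no strain for the MISR mice. MISR mice carry a transgene for the IκB super-repressor under the muscle creatine kinase (MCK) promoter, which is active in mature fibers and not in satellite cells, so the other cells of the muscle keep their own NF-κB signaling. The aged WT and aged MISR arrays are named by the replicate numbers of the labels (aged WT 2 and 3, aged MISR 1 and 2), and the 3 remaining arrays, from young WT animals of 2 to 3 months, entered the estimate of the spread and are given as a reference. WT animals of the study were obtained commercially and MISR animals were bred in house, but the source of the WT animals on the arrays is not stated. For its regeneration studies the paper describes MISR mice aging together with WT controls of the same age. Source may therefore differ with genotype, and the arrays cannot tell the effects of genotype and source apart. The sources used here do not give the muscle taken, the sex of the mice or whether the aged animals were littermates. A gene was included when the array named it by 1 symbol and its signal reached the array median in at least 2 arrays, which kept 13364 of 22180 genes. Signals are log2 values after robust multi-array averaging (RMA), a joint normalization of all arrays, and array medians lay between 5.86 and 5.93. Differences are aged MISR minus aged WT on the log2 scale.

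NF-κB is a family of dimeric transcription factors held in the cytoplasm by IκB proteins. Inflammatory cytokines, Toll-like receptors and cell stress activate the IκB kinase (IKK) complex, which marks IκB for degradation and frees NF-κB to enter the nucleus. The super-repressor is an IκBα that cannot be marked in this way and keeps NF-κB inactive. In skeletal muscle the pathway is known for its role in inflammation, wasting and the response to injury. The question behind the comparison is which genes of aged muscle differ when NF-κB has been blocked in the fibers.

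The 4 aged arrays all read as skeletal muscle. Ckm, the muscle creatine kinase, read 13.53 in both aged WT arrays and 13.54 and 13.34 in the aged MISR arrays. Eif2s3y, Kdm5d and Uty, genes of the Y chromosome, read between 8.37 and 9.57 in aged WT and between 8.16 and 9.42 in aged MISR muscle, so Y-linked RNA was present at similar levels in both groups. The 2 aged MISR arrays differed more from each other (standard deviation of the gene-wise difference 0.279) than the 2 aged WT arrays did (0.209), and each was high in the markers of another tissue. Aged MISR 1 was high in megakaryocyte and platelet markers, whose summed signal (log2 of the sum over 9 genes) was 13.09 there against 10.78 in aged MISR 2 and 11.10 and 10.65 in aged WT. It was also high in bone cell markers (11.16 over 7 genes, against 9.30 to 9.61 in the other 3 aged arrays). Aged MISR 2 was high in adipocyte markers (13.29 over 11 genes, against 12.21 to 12.38 in the other 3). Lists are therefore given with each pair of arrays, and without the array concerned where it decides the value. In whole muscle, more cells of a type and more RNA per cell cannot be told apart.

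Among the 13364 genes tested, 7 (0.0524%) rose in aged MISR muscle relative to aged WT with an adjusted p below 0.05 and 0 fell. At an unadjusted p under 0.05, 1080 genes were higher (8.08%) and 547 lower (4.09%). Both arrays of aged MISR muscle were above both of aged WT muscle in 2719 genes (20.3%) and below them in 2062 (15.4%), and these shares are the background for the counts given for each gene list. The median difference over all genes was 0.01. The differences were small for most genes: their median size was 0.0942, against 0.102 within the aged WT pair and 0.125 within the aged MISR pair. A difference of 1.5-fold or more was reached by 206 genes upwards and 29 downwards, and of 2-fold or more by 38 and 6. The calls rest on the spread estimated over all 7 arrays: with limma, 0 genes passed in either direction from the 4 aged arrays alone, without aged WT 2, or with any 1 young WT array left out, and without aged WT 3 the 3 genes that passed were none of the 7. Without aged MISR 1 there were 70 higher and 14 lower genes and without aged MISR 2 there were 98 and 15, all 7 among the higher ones in both cases, and the methods' t-test gave 2 higher and 1 lower, none of them among the 7. The methods name this t-test for other 2-group comparisons and name no test for the arrays. Without the signal filter 3 of the 7 passed (Ighv1-53, H2-Ab1 and Angptl4), and Jchain, H2-Aa and Gatm were just outside at an adjusted p of 0.051 from limma. Beyond the 7 genes, no member of the lists described here passed the test, and their readings are given as levels and differences.

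Antibody genes held the largest positive differences. Plasma cells secrete antibodies built from heavy and light chains, and the J chain joins the units of secreted IgM and IgA. Jchain read 5.55 and 5.64 in aged WT against 9.59 and 8.44 in aged MISR muscle, with 5.65, 5.79 and 6.06 in young WT. The aged MISR arrays stood apart from all 5 WT arrays, and the gene rose by 3.42 (standard error 0.33, adjusted p = 0.0349 from limma). Ighv1-53, a heavy chain variable segment, read 7.02 and 6.95 against 10.17 and 9.50 and rose by 2.85 (standard error 0.20, adjusted p = 0.0121). A kappa light chain variable segment also rose: Igkv4-59's signal was 4.94 and 5.41 against 8.44 and 7.63, higher by 2.86 (standard error 0.29, adjusted p = 0.0406). Jchain reached the array median in 1 of the 5 WT arrays. The kappa segment was under it in all 5 WT arrays and entered the test only through the aged MISR arrays, and without the signal filter its adjusted p was 0.061 (limma). Aged WT muscle was low in these genes, and Jchain's and Igkv4-59's signals were under the median of the array in aged WT 2 and in aged WT 3.

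**Figure D1:**
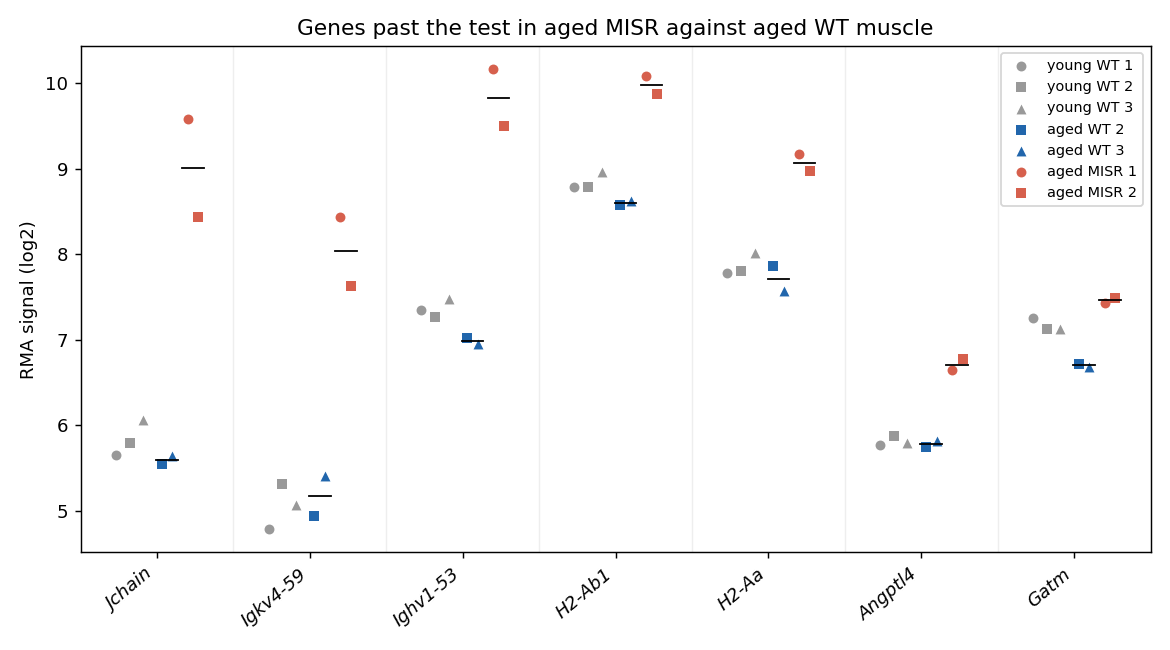
RMA signal (log2, vertical axis) of the 7 genes past the test, with 1 point for each array and a bar at the mean of the 2 aged WT and the 2 aged MISR arrays. Both aged MISR arrays lie above all 5 WT arrays in each gene, from 8.44 and 9.59 for Jchain to 7.43 and 7.49 for Gatm.

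Most other antibody genes lay on the same side, unequally between the 2 aged MISR mice. Of 21 antibody genes on the array, Jchain included, 20 were higher on the group means and 19 had both aged MISR arrays above both aged WT arrays, where 16.6% of all 22180 genes did and 17.7% had them below, and 17 had them above all 5 WT arrays. Only 10 reached the signal filter. For 2 of them no WT array reached the array median, and Jchain, with 1 WT array there, also needed an aged MISR array to pass. Igkv4-72 read 6.43 and 6.36 in aged WT against 10.79 and 8.59 in aged MISR muscle, a difference of 3.29 that did not pass the test (adjusted p = 0.123). Igkj1, a kappa joining segment, read 4.88 and 5.54 against 8.62 and 7.33 (adjusted p = 0.0993). Igkv4-70 and 2 further kappa segments differed by 2.48, 2.44 and 2.38 (adjusted p = 0.150 to 0.257). Ighm, the constant part of IgM, read 10.60 and 12.03 against 12.89 and 12.71. Aged WT 2 was the low array of this gene, and young WT muscle read 12.25 to 12.28.

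Aged MISR 1 read higher than aged MISR 2 in 19 of the 21 antibody genes. The gap was widest for Igkv8-30, at 9.0 against 4.69, and for Ighg3, the constant part of an IgG, at 9.05 against 5.49. Both genes read 4.32 to 5.03 in aged WT muscle and were below the signal filter. Aged MISR 1 was also the array high in platelet and bone markers. The median difference was 2.25 over all 21 antibody genes and 2.63 over the 10 tested. Without aged MISR 1 the latter was 1.87, and that of the platelet markers was −0.14 in place of 0.82. Variable segments of the same family are similar in sequence, so the probes of 1 segment may read others of its family, and the value of any single segment is uncertain.

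Other genes of B cells and plasma cells differed less. Of 14 tested markers, 13 were higher and 11 had both aged MISR arrays above both aged WT arrays, with a median difference of 0.37, pair medians of 0.21 to 0.48, and 0.22 without aged MISR 1. Cd79a and Cd79b, the signaling chains of the B cell receptor, were highest in aged MISR 1: Cd79a read 5.80 and 6.01 against 7.02 and 6.33, and Cd79b 6.39 and 6.16 against 7.82 and 6.42. Pou2af1, a coactivator of antibody genes, and Irf4, a transcription factor of plasma cells, differed by 0.62 and 0.52, and the plasma cell protein Mzb1 by 0.39 (unadjusted p = 0.00521 to 0.0137 from limma). Jchain was the 1 marker of the list past the test. Derl3 and Tnfrsf17, which plasma cells also express, did not separate the groups: Derl3 read 6.33 and 6.38 against 6.57 and 6.23, and Tnfrsf17 was below the signal filter at 5.05 to 5.35.

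MHC class II genes formed the second group of rises. Class II molecules are pairs of an alpha and a beta chain that carry peptides to the surface of macrophages, dendritic cells and B cells and show them to CD4+ T cells. H2-Ab1, the beta chain of I-A, read 8.58 and 8.62 in aged WT against 10.09 and 9.88 in aged MISR muscle, against 8.79 to 8.96 in young WT. It rose 2.61-fold (difference 1.38, standard error 0.10, adjusted p = 0.0121). H2-Aa, its alpha chain partner, read 7.86 and 7.57 against 9.17 and 8.97 and rose 2.56-fold (difference 1.36, standard error 0.13, adjusted p = 0.0349). Both chains of the I-A molecule thus rose by a similar amount, and in both the lowest aged MISR array stood more than 1 log2 unit above the highest aged WT array.

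The other class II genes lay on the same side. H2-Eb1, the beta chain of I-E, read 8.35 and 8.33 against 9.27 and 9.03 (adjusted p = 0.0671). Ctss, the protease cathepsin S that trims the invariant chain, read 7.27 and 7.06 against 8.45 and 7.89 (difference 1.0, adjusted p = 0.107). H2-DMa, a chain of the peptide exchange factor, and H2-Ob differed by 0.46 and 0.53. Including genes below the signal filter, 10 of 10 chains, exchange factors and proteases had both aged MISR arrays above both aged WT arrays. H2-Ab1 and H2-Aa are counted among these 10. The regulators of class II transcription gave different readings: Ciita, the class II transactivator, read 6.85 and 6.86 against 6.85 and 6.85, and Rfx5, Rfxank and Rfxap differed by −0.08 to −0.01, values named here after they were seen.

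The promoters of H2-Aa and H2-Eb1 are shown because they carry the Y box, an element of class II promoters read here as CTGATTGG on either strand. Both are RefSeq windows on GRCm38.p6, from 250 bases before to 50 bases after the gene's start, printed in the direction of transcription. H2-Aa is on the minus strand at chr17:34287774-34288073 and H2-Eb1 on the plus strand at chr17:34305617-34305916. Capitals mark the Y box in both and, further upstream in H2-Aa, a match to the NF-κB consensus, which a second match on the other strand overlaps.
H2-Aa: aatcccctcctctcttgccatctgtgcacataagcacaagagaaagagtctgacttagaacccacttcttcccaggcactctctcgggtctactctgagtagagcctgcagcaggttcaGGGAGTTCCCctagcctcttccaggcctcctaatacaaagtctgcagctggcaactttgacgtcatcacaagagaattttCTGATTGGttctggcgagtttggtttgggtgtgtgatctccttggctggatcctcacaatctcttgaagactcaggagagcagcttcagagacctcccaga
H2-Eb1: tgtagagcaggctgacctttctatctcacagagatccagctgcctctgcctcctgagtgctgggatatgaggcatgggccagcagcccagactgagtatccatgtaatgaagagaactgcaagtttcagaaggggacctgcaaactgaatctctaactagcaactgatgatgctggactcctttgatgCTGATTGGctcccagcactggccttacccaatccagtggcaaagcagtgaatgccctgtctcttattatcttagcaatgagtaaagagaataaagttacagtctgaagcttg
The Y box begins 51 bases before the start of H2-Aa and 62 bases before that of H2-Eb1. It was found in 4.1% of 32851 RefSeq promoter windows, and in 4 of the 11 genes of the class II list with a window, H2-Eb2 and H2-Oa being the others. Those 11 include the protease Ctss and the regulators Rfx5 and Rfxank, in which it was not found. The NF-κB consensus, on either strand, was found in 8.46% of all windows, and among the 3 genes past the test that have a window (H2-Aa, Gatm and Jchain) only in H2-Aa. A match of letters is a description and not a measured binding site.

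H2-Ab1 and H2-Aa lie 0.0195 Mb apart on chromosome 17, and Angptl4 lies 0.488 Mb from H2-Ab1. Within 0.5 Mb of the start of H2-Ab1, on either side, 47 genes were tested, 11 had both aged MISR arrays above and 4 had them below both aged WT arrays, and the median difference was 0.05. Of the 47, 9 were higher and 2 lower at an unadjusted p under 0.05 from limma, where 8.08% and 4.09% of all genes were. The window was centred on a gene past the test. All 3 genes of chromosome 17 past the test (H2-Ab1, H2-Aa and Angptl4) lie in this window. They are counted among the 9, so the counts of the window are not independent of the calls. A regional cause was not tested. Over the whole of chromosome 17 the aged MISR arrays lay above in 19.3% of genes, near the share over all genes.

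Class I genes, which show peptides to CD8+ T cells on nearly all cells, differed by less. Of 17 tested class I and immunoproteasome genes 14 were higher and 9 had both aged MISR arrays above both aged WT arrays (median 0.19). H2-T23, a class I molecule that binds receptors of natural killer cells, read 6.27 and 6.32 against 6.76 and 6.81 (adjusted p = 0.0748). B2m, the shared light chain, read 12.63 and 12.51 against 12.88 and 12.78. The classical heavy chain H2-K1 overlapped between the groups, at 9.57 and 9.30 against 9.81 and 9.45.

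Macrophage genes were higher as a group without any of them passing the test. All 28 tested markers were higher in aged MISR muscle and 19 had both aged MISR arrays above both aged WT arrays. For 2 of the 28 no WT array reached the array median, and only the aged MISR arrays took them past the signal filter. Over all 31 markers on the array 20 had aged MISR arrays above and none below. Adgre1, a surface receptor that defines mouse macrophages, read 7.04 and 6.22 in aged WT against 7.60 and 7.65 in aged MISR muscle. Mrc1, the mannose receptor, read 7.86 and 7.25 against 8.40 and 8.56, and Ms4a7 6.70 and 6.07 against 7.57 and 7.50. Aged WT 3 was the lowest array in each, and the median difference of the list was 0.56, with 0.33 when aged WT 3 was left out and 0.78 when aged WT 2 was. The summed signal of the list in young WT muscle (12.15 to 12.28) lay between the 2 aged WT arrays (12.41 and 11.89) and below both aged MISR arrays (12.76 and 12.70).

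Genes that macrophages and other immune cells use were also mostly higher in aged MISR muscle. Of 17 complement genes on the array 12 had aged MISR arrays above and none below (median 0.30). Over the 15 tested the median was 0.35, and 0.19 without aged MISR 2. Among them were the C1q chains C1qa, C1qb and C1qc at 0.55, 0.98 and 0.62. Of 20 chemokines 9 had aged MISR arrays above and 3 below. Cxcl9, which attracts activated T cells, read 6.71 and 7.06 against 8.77 and 7.67 (adjusted p = 0.186), and Ccl5 6.40 and 6.54 against 7.98 and 7.22. Of 22 interferon response genes 12 had aged MISR arrays above and none below, with Stat2 at 6.84 and 6.84 against 7.33 and 7.29. T and NK cell markers were mostly near the low end of the arrays: 5 of 16 reached the signal filter, and Cd3d and Cd3e read 4.75 to 5.0 in all 4 arrays. Cd3g, below the filter, read 5.28 and 5.34 against 6.97 and 5.86.

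Myeloid genes were not all on the same side. Of 17 neutrophil markers none had both aged MISR arrays above and 1 had them below, and the median of each pair of arrays ran from −0.90 to 1.21. The summed signal of the list was 11.63 and 10.71 in aged WT against 12.01 and 10.38 in aged MISR muscle, so the spread within each genotype was larger than the difference between them.

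Angptl4 and Gatm, the remaining genes past the test, belong to metabolism. Angptl4 is a secreted inhibitor of lipoprotein lipase and is induced by fatty acids through PPAR receptors. It read 5.75 and 5.81 in aged WT, 5.77 to 5.87 in young WT and 6.65 and 6.77 in aged MISR muscle, and rose 1.91-fold (difference 0.93, standard error 0.08, adjusted p = 0.0206). Angptl4 was under the array median in all 5 WT arrays and entered the test only through the aged MISR arrays, with an adjusted p of 0.0241 from limma without the signal filter. Gatm makes guanidinoacetate, the precursor of creatine. It read 6.72 and 6.68 in aged WT against 7.43 and 7.49 in aged MISR muscle and rose 1.69-fold (difference 0.76, standard error 0.07, adjusted p = 0.0349). Its young WT level, 7.13 to 7.25, lay between the aged groups. The aged MISR arrays were within 0.12 of each other in both genes.

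Genes near Angptl4 and Gatm in function were examined as lists. Of 29 genes of PPAR signaling and the fasting response 24 were higher, 9 had aged MISR arrays above and 2 below, with a median of 0.22. Angptl4 is itself a member of this list and is counted among the 24 and the 9. Slc25a20, the carnitine carrier of the mitochondrion, read 9.06 and 9.37 against 9.49 and 9.84. Cpt1a, which starts fatty acid import, read 7.28 and 7.67 against 7.80 and 7.96, and Hadhb, a subunit of the trifunctional enzyme, 7.09 and 7.17 against 7.57 and 7.57. Aged MISR 2 was the highest array in Slc25a20 and Cpt1a, and the list's median was 0.06 without it and 0.41 without aged MISR 1. Ucp3, an uncoupling protein of muscle, was low in aged WT 2 alone, at 7.73 against 9.17 to 9.40 in the other 3 aged arrays. Lpl, the lipase that Angptl4 inhibits, was high in aged MISR 2 alone (12.33, against 11.45 to 11.52). Of the creatine genes, Gamt, which completes creatine synthesis, read 7.96 and 8.38 against 8.61 and 8.65, and Slc6a8, the creatine transporter, was level at 11.62 to 11.76.

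Subunits of the respiratory chain were slightly and widely higher. Of 74 tested subunits of oxidative phosphorylation 65 were higher, 37 had both aged MISR arrays above both aged WT arrays and 1 had them below. The median difference was 0.13 and the largest 0.32, none passed the test, and 11 were higher at an unadjusted p under 0.05. By complex, 17 of 31 tested subunits of complex I had aged MISR arrays above, 2 of 4 of complex II, 4 of 8 of complex III, 6 of 14 of complex IV and 8 of 17 of the ATP synthase. Cox6a1 of complex IV read 10.56 and 10.67 against 10.90 and 10.97, Ndufa8 of complex I 10.96 and 11.16 against 11.29 and 11.42, and Ndufb6 of complex I 10.36 and 10.45 against 10.74 and 10.64. Aged WT 2 was the lowest array in most of the subunits named, and without it the median of the list was 0.07. Cytosolic ribosomal proteins, given as a second large set of abundant genes, had 0 of 54 above and 7 below, with a median of −0.03.

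**Figure D2:**
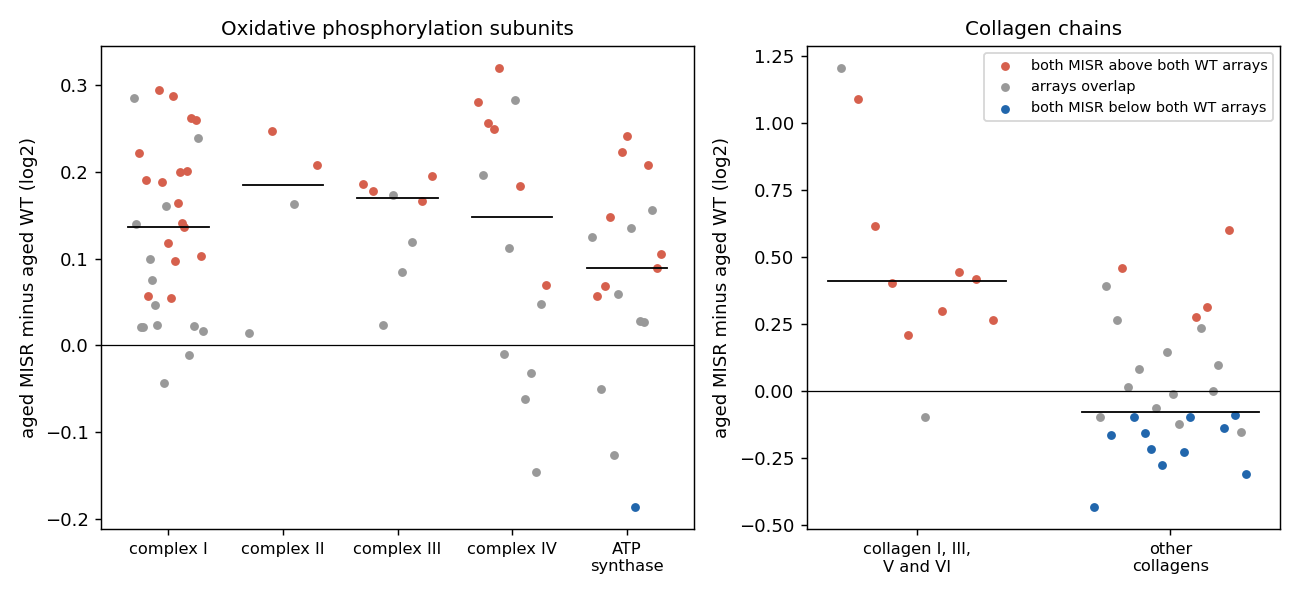
Difference between aged MISR and aged WT muscle (log2, vertical axis), with 1 point for each tested subunit of oxidative phosphorylation by complex (left) and each tested collagen chain (right), and a bar at the median of each set. Most subunits lie above 0 in every complex, while the chains of collagen I, III, V and VI lie mostly above 0 (median 0.41) and the other collagens mostly below it (median −0.08).

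Matrix genes divided into 2 sets. Of 38 tested collagen chains 12 had aged MISR arrays above and 11 below. The chains of collagens I, III, V and VI, the fibrillar and beaded collagens that fibroblasts make between the fibers, were higher in 9 of 10 cases, with a median of 0.41. Col3a1 read 7.54 and 8.07 in aged WT, 8.22 and 8.62 in aged MISR and 8.40 to 8.64 in young WT muscle. Col1a1 read 8.72 and 9.30 against 11.22 and 9.20, so its difference of 1.20 rested on aged MISR 1, the array high in bone markers, and the groups overlapped. The other collagens had a median of −0.08, with 11 of 28 below and 4 above. Col10a1 and Col9a3, chains known from cartilage, differed by −0.43 and −0.31. This division of the collagens, Col10a1 and Col9a3 were chosen after the values were seen.

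Of 31 tested matrix proteins and enzymes other than collagens 28 were higher, 16 had aged MISR arrays above and none below (median 0.39, which became 0.19 without aged MISR 2 and 0.25 without aged WT 2). Postn, which encodes periostin, read 6.33 and 6.63 in aged WT, 7.41 and 7.35 in aged MISR and 7.20 to 7.49 in young WT muscle (difference 0.90, adjusted p = 0.0825). Mmp2, a matrix protease, read 9.62 and 9.96 against 10.11 and 10.64, and Timp2, its inhibitor, 9.31 and 9.65 against 9.85 and 10.20. Tnc, the glycoprotein tenascin C, was high in aged MISR 1 alone at 8.73. Markers of fibro-adipogenic progenitors, the resident fibroblast precursors of muscle, were all higher (15 of 15, 10 with aged MISR arrays above), with Pdgfra at 8.34 and 8.54 against 9.01 and 9.23. The median of these markers was 0.39 and 0.13 without aged MISR 2.

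No gene fell past the test. The largest negative difference was that of Prg4, which encodes lubricin, the lubricant of joint and tendon surfaces. It read 9.85 and 10.59 in aged WT against 8.33 and 8.80 in aged MISR muscle, a difference of −1.66 (adjusted p = 0.123), and 9.42 to 10.09 in young WT muscle. Other tendon markers did not separate the groups: Tnmd, the defining tenomodulin, read 5.23 and 5.84 against 5.04 and 5.88, and Scx 7.27 and 7.19 against 7.30 and 7.21. Clec3a, a lectin of cartilage, read 6.36 and 6.75 against 5.75 and 5.84.

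The precursors of the muscle microRNA miR-133a came next. Mir133a-1 read 7.70 and 6.54 in aged WT against 5.92 and 5.34 in aged MISR muscle, and Mir133a-2 read 6.97 and 5.74 against 5.07 and 4.80. Aged WT 2 was the high array in both, and young WT muscle (5.62 to 6.27) lay on the side of aged WT 3. Both precursors give the same mature microRNA. Tmem100, a membrane protein of endothelial cells, read 9.60 and 9.46 against 8.85 and 7.82. Mir1190 and Scgb1b3 were closer to the threshold than any of these, with smaller differences of −0.75 and −0.64 (adjusted p = 0.0954 and 0.0834). Tecrl and Scn3b, among the 15 largest negative differences, also rested on aged WT 2, which read 6.93 and 7.17 where the other 3 aged arrays read 5.59 to 6.24.

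**Figure D3:**
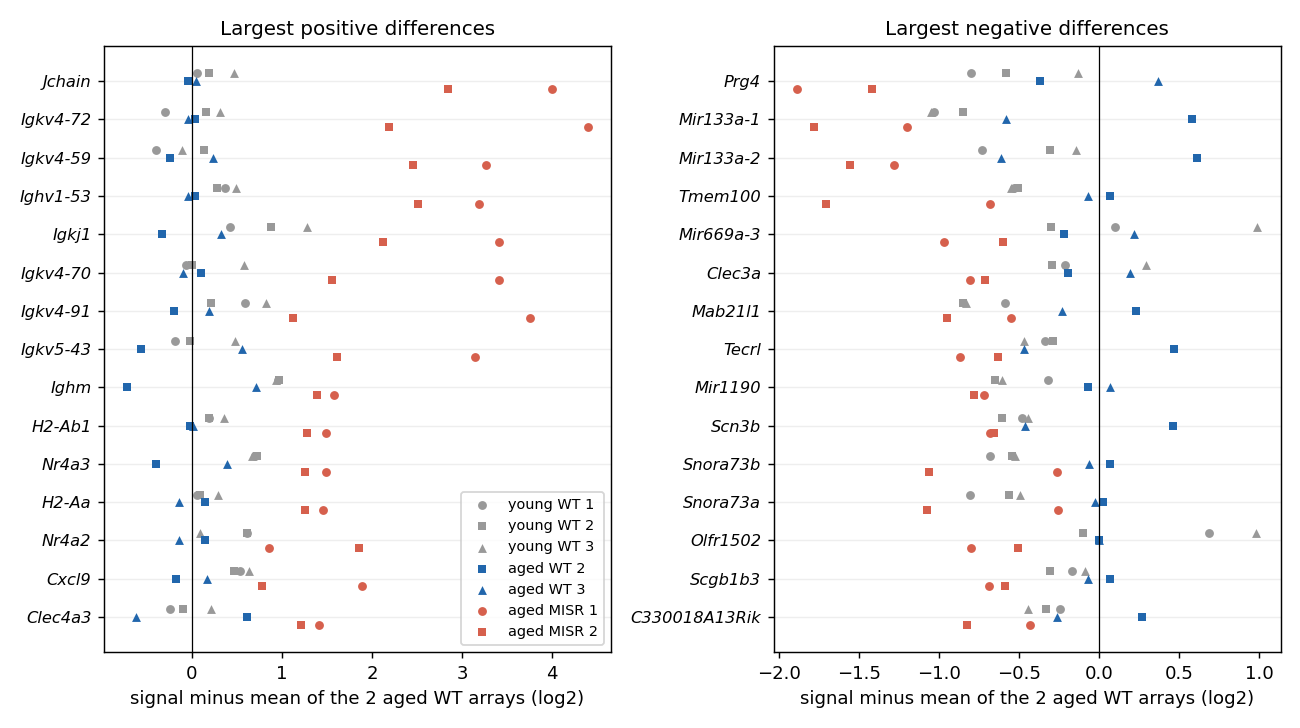
Signal of each array minus the mean of the 2 aged WT arrays (log2, horizontal axis) for the 15 largest positive (left) and 15 largest negative (right) differences among tested genes whose aged groups do not overlap. Antibody genes fill the top of the left panel with aged MISR 1 furthest out, and Prg4, at −1.66, leads the right panel.

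A looser threshold added more genes. At an adjusted p from 0.05 to 0.1 a further 46 genes were higher and 6 were lower, and the ones that follow were named after their values were seen. Grn, the lysosomal growth factor progranulin, differed by 0.55, Unc93b1, which escorts Toll-like receptors to endosomes, by 0.96, and Slamf7, a receptor of plasma cells and macrophages, by 0.88. Terc, the RNA of telomerase, read 8.24 and 8.38 against 8.99 and 9.36, and 9.39 to 9.61 in young WT muscle.

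Immediate-early genes, which cells induce rapidly on stimulation, lay mostly higher in aged MISR muscle. Of 24 tested immediate-early transcription factors 20 were higher, 14 had aged MISR arrays above and 1 below, with a median of 0.32 and pair medians of 0.15 to 0.43. Nr4a3, an orphan nuclear receptor that muscle induces with activity, read 6.97 and 7.76 against 8.86 and 8.62 (adjusted p = 0.107). Nr4a2 read 7.01 and 6.72 against 7.72 and 8.72, Egr1 6.89 and 6.69 against 8.17 and 7.43, and Atf3 7.36 and 7.70 against 8.30 and 8.33. Young WT muscle read 8.03 to 8.09 for Nr4a3, between the aged groups, and 7.59 to 7.73 for Atf3, level with aged WT. Heat shock proteins and chaperones had 12 of 20 tested members higher, 1 with aged MISR arrays above and a median of 0.01. The sources used here do not give the time of harvest.

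Components of the NF-κB pathway itself differed little. Of the 9 tested subunits and IκB proteins none had aged MISR arrays above and 3 had them below, with a median of −0.10, and −0.15 to −0.06 when 1 aged array was left out. Nfkbia, which encodes IκBα, read 8.55 and 7.97 in aged WT, 8.17 and 8.94 in aged MISR and 8.94 to 9.01 in young WT muscle. The aged groups overlapped, and no source used here says whether the array reads the transgene's RNA, so Nfkbia does not check the labels. Rela, the p65 subunit, was level at 9.22 and 9.27 against 9.34 and 9.27. Rel read 9.39 and 9.26 against 9.21 and 8.99 (difference −0.23, adjusted p = 0.383), and Relb 6.25 and 6.34 against 6.23 and 6.02. Nfkb2 and Nfkbib overlapped between the groups, with aged MISR 2 the lowest aged array in each. Nfkb1 and Chuk were not analysed here.

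**Figure D4:**
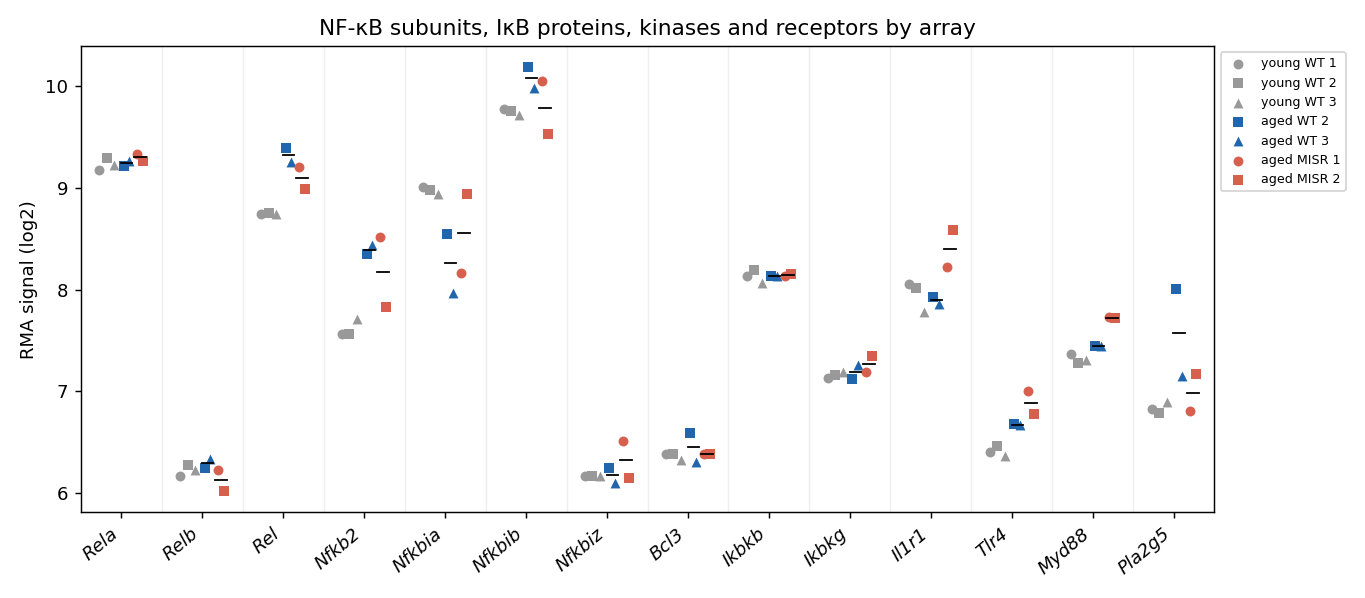
RMA signal (log2, vertical axis) of NF-κB subunits, IκB proteins, IKK subunits, upstream receptors and Pla2g5, with 1 point for each array and a bar at the mean of the 2 aged groups. Rela and Ikbkb are level in all arrays, while the 2 aged MISR arrays stand on either side of the aged WT values in Nfkb2.

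Upstream of NF-κB, Ikbkb, the catalytic kinase, was level at 8.14 and 8.14 against 8.14 and 8.16, and Ikbkg, the regulatory subunit, overlapped. Receptors and adaptors were on the higher side: of 26 tested members of this list 23 were higher, 13 had aged MISR arrays above and none below, with a median of 0.08. Il1r1, the interleukin 1 receptor, read 7.93 and 7.86 against 8.22 and 8.59, Myd88, its adaptor, 7.45 and 7.45 against 7.73 and 7.72, and Tlr4 6.68 and 6.67 against 7.0 and 6.78. None of them passed the test. Of 30 tested NF-κB target genes 8 had aged MISR arrays above and 2 below, and the median was 0.08, with 0.03 to 0.14 when 1 aged array was left out. Ccl5 and Vcam1, an adhesion molecule of endothelium, had the largest positive differences of the list (1.13 and 0.90).

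Pla2g5, a secreted phospholipase A2 that releases fatty acids from membranes, had the largest negative difference among NF-κB targets. It read 8.01 and 7.15 in aged WT, 6.81 and 7.17 in aged MISR and 6.79 to 6.90 in young WT muscle (difference −0.59, standard error 0.26, adjusted p = 0.422). Aged WT 2 stood above the other aged arrays, and aged WT 3 lay below aged MISR 2, so the groups overlapped. Among 28 tested phospholipase A2 and prostaglandin genes 11 had aged MISR arrays above and 2 below. Pla2g2d, a secreted phospholipase A2 of lymphoid tissue, read 7.02 and 6.95 against 7.48 and 7.87, and Pla2g4a, the cytosolic enzyme that releases arachidonic acid, 6.23 and 6.10 against 7.12 and 6.42. Alox5ap, which hands arachidonic acid to the leukotriene pathway, read 7.97 and 7.39 against 8.25 and 8.06.

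Genes of the fibers and their stem cells showed few differences between the groups. Of 15 tested fast fiber genes 2 had aged MISR arrays above and 5 below. Myh2, the myosin of oxidative fast fibers, read 11.44 and 11.46 in aged WT, 11.58 and 12.57 in aged MISR and 12.24 to 12.33 in young WT muscle. Slow fiber genes followed single arrays, with Myh7, the slow myosin, at 9.74 and 8.75 against 7.87 and 9.49, and the median of the pairs ran from −0.71 to 0.64. Of 21 satellite cell and myogenic genes 3 had aged MISR arrays above and 4 below, with a median of 0.03. Myod1, a driver of muscle commitment, read 9.23 and 9.21 against 8.67 and 8.94 (difference −0.41, adjusted p = 0.231), and Mymk, the fusion protein myomaker, 5.98 and 5.99 against 6.41 and 6.29. Pax7, which marks satellite cells and was named after its values were seen, read 7.46 and 7.47 against 7.29 and 7.30. Of 29 atrophy and FoxO genes 1 had aged MISR arrays above and 4 below, and Trim63, the ubiquitin ligase MuRF1, was low in aged MISR 2 alone (10.01, against 10.67 to 10.82).

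**Figure D5:**
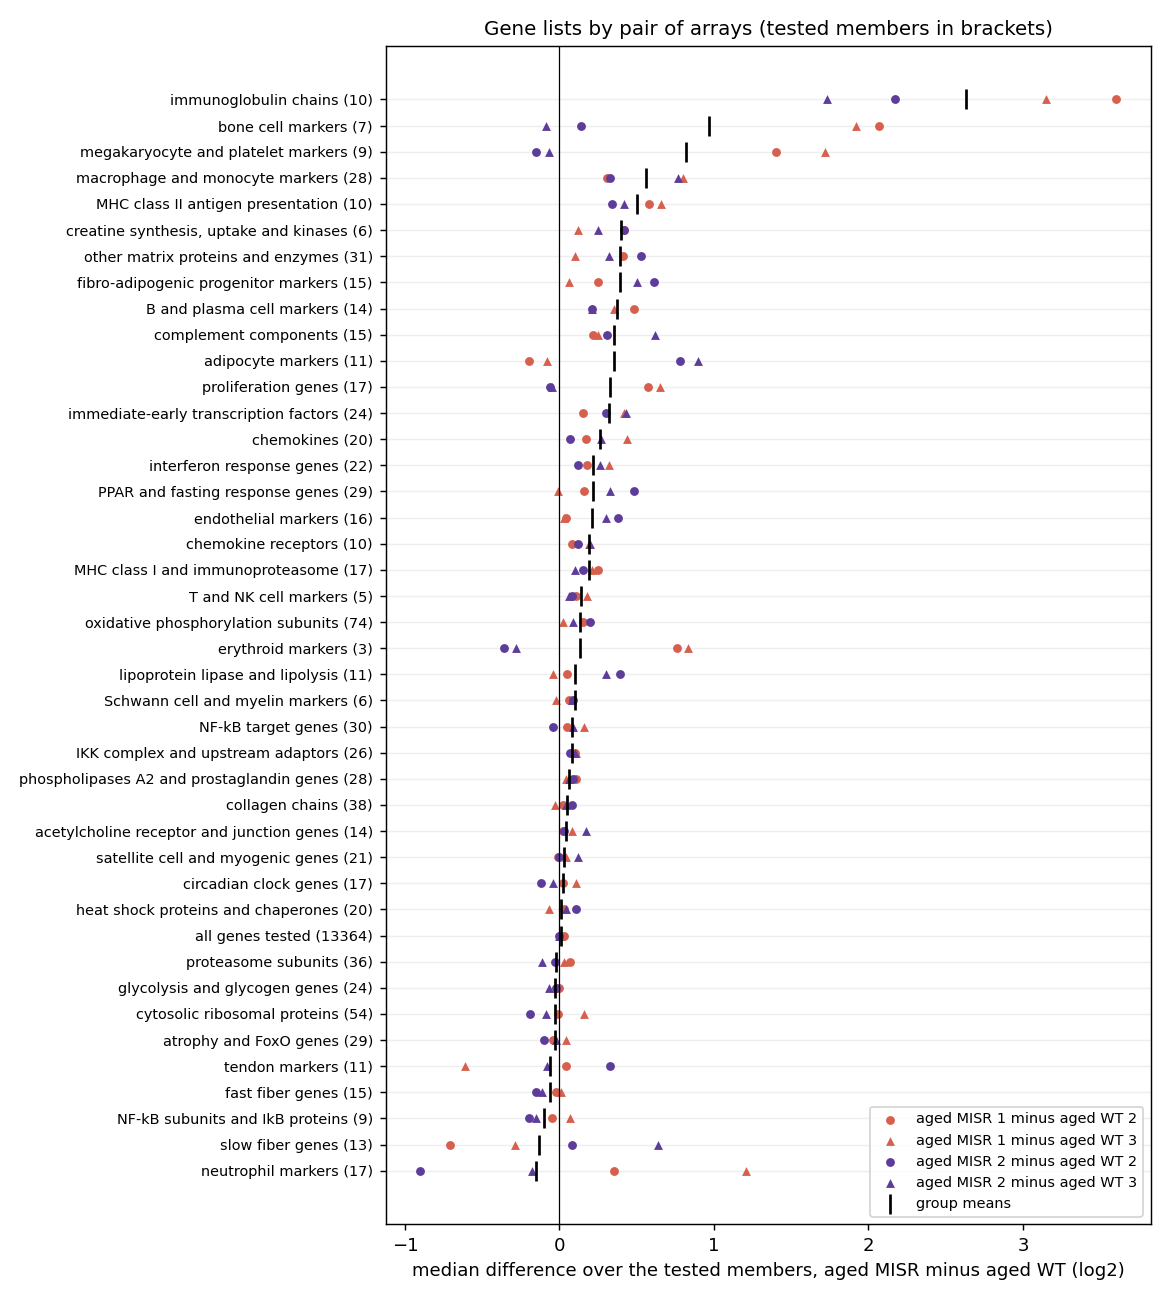
Median difference over the tested members of each gene list (log2, horizontal axis), with the median from the group means as a bar and that of each of the 4 pairs of an aged MISR and an aged WT array as a point. The 4 pairs are all above 0 for antibody, macrophage and MHC class II genes, while platelet and bone markers are high only in the pairs with aged MISR 1 (up to 1.72 and 2.07) and adipocyte markers only in those with aged MISR 2 (up to 0.90).

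Proliferation genes show how far 1 array can set a list. All 17 tested were higher on the group means (median 0.33), with Mki67 at 7.08 and 6.88 in aged WT against 8.49 and 6.64 in aged MISR muscle. Without aged MISR 1 the median was −0.04. Adipocyte markers behaved in the same way with aged MISR 2: 10 of 11 were higher, none without overlap, and the median of 0.35 became −0.16 without that array, with Plin1, the coat protein of lipid droplets, at 6.33 and 6.85 against 6.38 and 7.86. The antibody, MHC class II and macrophage medians, in contrast, were 1.87, 0.38 and 0.48 without aged MISR 1 and 3.34, 0.62 and 0.52 without aged MISR 2.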

How the data were processed

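RNA of whole muscle was hybridized to Affymetrix Mouse Gene 2.0 ST arrays. The authors normalized the 7 arrays together by RMA and deposited log2 values; no source used here gives the RMA version. The gene table lists 25341 of the 41345 features, 23521 with 1 symbol. Features with several symbols (1820) or no listing (16004) were left out. For genes with several features, the one with the highest mean was used. The contrast of the aged groups was taken in a single limma fit of 7 arrays (limma 3.58.1, R 4.3.3), with 4 residual and 3.13 prior degrees of freedom and Benjamini-Hochberg adjustment over all genes tested. Each array is a separate labelled sample, and having 2 or 3 arrays per group limits the precision. Named genes were those past the test, the 15 largest differences each way without overlap, up to 6 members of each list with the largest differences, defining markers, and genes of the NF-κB question. The comparison, members and lists were chosen with earlier results of these data known. Lists were described by counts and medians, with no test. The alternatives included the replicate number as a block and the 2-group test that the methods name for the study. The methods name no test for the arrays, from which the paper picked candidate genes by fold-change. The deposited files hold no columns beyond the 7 arrays. The fit was tested on simulated data that gave all groups the same spread for each gene. The spread of the real arrays differed between groups, so the simulation did not test how the calls depend on the young arrays. Promoters are RefSeq sequences. Figures were drawn with Python 3.11.15 and matplotlib 3.10.9.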

Additional observations from a re-analysis of the deposited data

How the results depend on the processing

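Of 126 values of the 7 higher genes under 18 alternatives, 54 stayed past the threshold and 72 did not. The direction of the 7 genes was the same throughout. In these genes the aged groups do not overlap, so leaving out arrays or changing the filter or test could not reverse it. The unchanged direction is therefore no check of the calls. For H2-Ab1 the adjusted p ranged from 0.00402 to 0.729 over the alternatives. The cause of the changes below was not tested. Dropping young WT arrays leaves fewer arrays for the spread, and these arrays were also the closest to each other. The standard deviation of the gene-wise difference was 0.128 to 0.151 between young WT arrays, against 0.209 within aged WT and 0.279 within aged MISR. The fit takes 1 spread per gene for all groups, so the adjusted p values of the 7 genes lean on the young arrays. In place of 7 higher genes, 15 passed when arrays were centred on their medians, 3 without a signal filter, 0 in a fit of the 2 groups only, 2 with array weights, 2 with the methods' t-test and 53 at an adjusted p under 0.1, and 0 when aged WT replicate 2 and aged MISR replicate 1 were left out together, an alternative chosen after seeing the data. In place of 0 lower genes (547 at an unadjusted p under 0.05), 1 passed without a signal filter, 1 with the methods' t-test and 6 at an adjusted p under 0.1. Leaving out 1 array at a time gave 0 to 98 higher and 0 to 15 lower genes. A group left with 1 array took its spread from the remaining groups by assumption. With the replicate block 0 genes passed in either direction. The 2 aged groups share only replicate number 2, and the deviations of arrays with the same number correlated at −0.224 to −0.008, so the numbers were not taken to pair the arrays. The median of all genes moved to 0.05 when arrays were centred. The medians of the bone, platelet, erythroid, adipocyte, neutrophil, tendon, slow fiber, collagen, satellite cell, atrophy, glycolysis, clock, heat shock, proteasome, ribosomal and proliferation lists changed sign under at least 1 alternative.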

Other observations

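Features outside the gene table also differed between the aged groups. In a separate limma fit, 4 of 1043 features with several gene symbols were higher in aged MISR muscle and none was lower at an adjusted p under 0.05 (74 and 21 at an unadjusted p under 0.05), and of 6661 features with no listing 19 were higher and 5 lower (284 and 523). They are not named here.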
